A study of Mus musculus with 10 samples.

Results

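The collagen genes encode the triple-helical proteins that make up much of the extracellular matrix. Members were all rows of the authors' 3 comparison tables whose gene symbol is Col, a number, the letter a and a number, and this rule found 44 of the 30431 rows in each table. The study sequenced RNA of 10 mouse kidneys, each taken whole at postnatal day 21. The 4 wild-type kidneys are called WT. The 3 kidneys labelled Pkhd1Cre; Pkd2 F/F are called SM, and the 3 kidneys labelled Pkhd1Cre; Pkd2 F/F; miR-21null are called DM. The Pkhd1 promoter drives Cre in renal tubules, mainly collecting ducts, so the labels describe loss of polycystin-2 in part of the tubular epithelium and not in the cells between tubules. The miR-21null allele is named as a null of the microRNA gene itself, and no group without miR-21 but with intact Pkd2 was analysed here. Every library carries its own animal number, and the labels used here do not say whether the wild-type animals carried Cre, nor the litter.

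Collagen chains fold in threes in the endoplasmic reticulum, are trimmed of their propeptides outside the cell and are then crosslinked by lysyl oxidases. Fibrillar collagens form the rope-like fibres of interstitial tissue, type IV collagens form the sheet-like networks of basement membranes, and the remaining classes coat fibres, anchor epithelia, form beaded filaments or span the cell membrane. In the kidney the glomerular basement membrane holds a distinct type IV network, and in cystic kidneys interstitial fibrosis is a known feature of disease.

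The sources used here hold 1 average level and 3 fold changes per gene and no value per library, so the spread and the overlap of single kidneys cannot be shown. The level of each group was estimated in CPM, the read count scaled to library size, from the average and the fold changes in the authors' deposited tables. Each fold change carries a standard error (SE) implied by its test score, and a gene was called higher or lower when the deposited adjusted p, from edgeR's likelihood ratio test over all 30431 rows, was below 0.05. From the smallest steps in the deposited averages, 1 CPM corresponded to about 38.9 reads per library. At this depth 33 members averaged at least 1 CPM and 11 lay under it. The SM and DM comparisons share the WT libraries, so their values are given side by side. Where nothing more is known of the animals, p-values measure only the spread between these libraries.

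Among facts of the whole series, Pkd2 was estimated at 239 CPM in WT, 180 in SM and 170 in DM. Its log2 fold changes in the authors' deposited tables, -0.41 in SM and -0.49 in DM, were not called (adjusted p = 0.179 and 0.0838). The row of Mir21 was at the lowest level in every group, so it checks nothing. Vmp1, the gene that overlaps Mir21, was at 102, 122.1 and 256 CPM and rose in DM against WT by 1.33 per the authors' deposited table (adjusted p = 2.14e-04). Its direct difference, DM minus SM, was 1.07 and was not called in edgeR's likelihood ratio test (adjusted p = 0.32, the authors' deposited table). The 5 markers of the proximal tubule and other nephron segments were all above 1 CPM and summed to 13048 CPM in WT, 6799 in SM and 7458 in DM. Of these, 4 fell in SM and 3 in DM. The WT group also carried liver transcripts, with the albumin gene Alb at 132 CPM in WT, 0.327 in SM and 1.03 in DM. With no value per library, how many of the WT kidneys carried them is not known. Of 8 hepatocyte markers, 7 fell in SM and 6 in DM, and the summed level was 283, 69.5 and 85.1 CPM, most of it in the mutants from Ttr and Fgb. The part of these markers in the collagen results, the collagen share of all reads included, was not tested.

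More collagen genes were higher in the mutant kidneys than lower. In SM against WT, 22 of the 44 members rose, 2 fell and 20 did not pass the test, whereas 7.87% of all rows rose and 6.09% fell. In DM against WT, 20 rose, 2 fell and 22 did not pass, beside 7.55% and 5.92% of all rows. The median log2 fold change of the members was 0.91 in SM and 0.76 in DM, and that of the rows with at least 1 CPM was -0.01 and 0.00. Restricting both to at least 1 CPM gave 20 higher and 1 lower of 33 members in SM, against 12.2% and 9.47% of such rows, and 17 higher and 1 lower in DM, against 11.3% and 8.53%. A set of 21 members was called in both comparisons, 3 in SM alone and 1 in DM alone, and 19 were called in neither. Both comparisons use the same WT libraries, so a call in both is not independent agreement. How many of all rows were called in both was not counted.

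**Figure D1:**
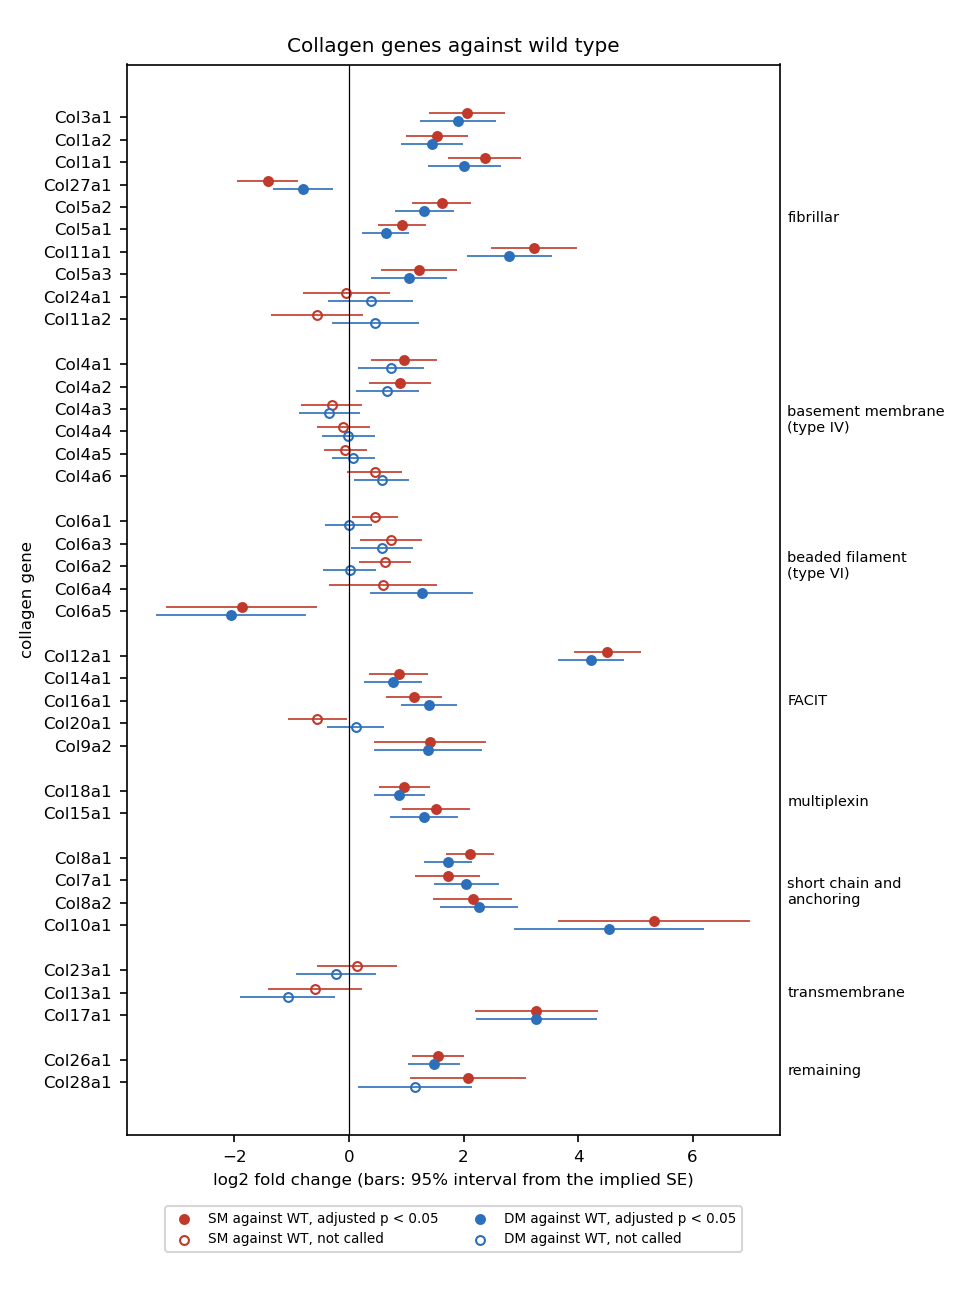
Log2 fold change against WT in SM and in DM of the collagen genes with at least 1 CPM or called, by class. Points are the deposited values, bars their 95% intervals from the implied SE, and filled points passed adjusted p below 0.05. Col12a1 at 4.51 and Col10a1 at 5.33 in SM lie farthest to the higher side, and Col27a1 and Col6a5 are the members called lower.

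The 44 members together took an estimated 0.469% of counted reads in WT, 0.936% in SM and 0.834% in DM. The sum was 1.996 times the WT sum in SM and 1.78 times in DM. These sums are estimates from group levels and carry no test. Type IV collagens made up the greatest part in every group, yet their share of the collagen sum was 62.5% in WT, 46.7% in SM and 47.0% in DM. Fibrillar collagens accounted for 20.7%, 31.8% and 31.9%. The class that binds to fibre surfaces, the fibril-associated collagens with interrupted helices (FACIT), held 2.55% in WT and 7.31% and 7.17% in the mutants of the collagen sum. Counted per kilobase of transcript, the type IV share was 56.7%, 42.6% and 42.7% and the fibrillar share 22.6%, 35.1% and 35.3%. The order of these classes was the same on both scales.

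**Figure D2:**
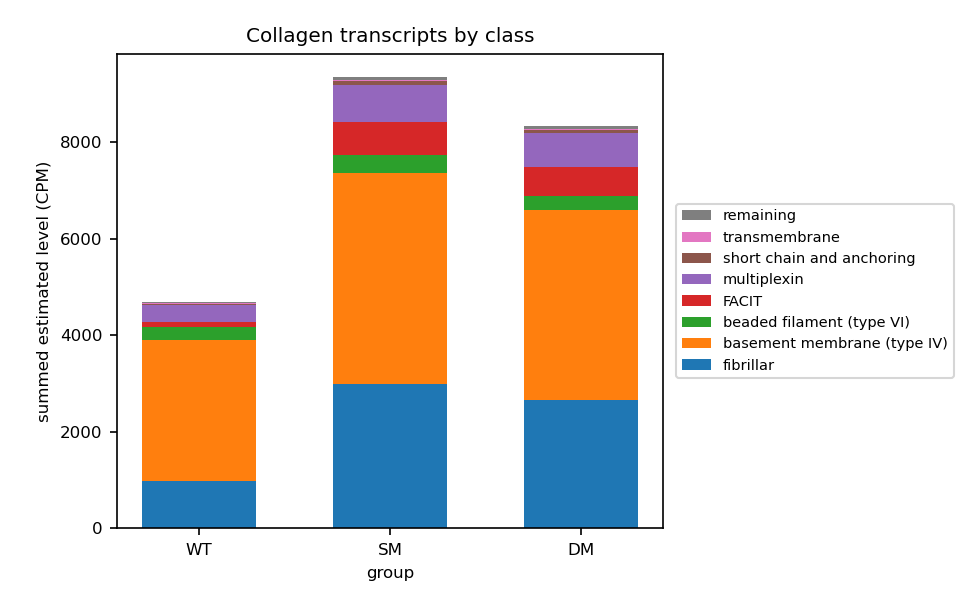
Summed estimated level of each collagen class in WT, SM and DM, in CPM. Fibrillar collagens stand at 970, 2979 and 2660 CPM and type IV at 2929, 4371 and 3923 CPM. Bars are sums of group estimates and have no error bars because no value per library was at hand.

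Of the 11 fibrillar genes, 7 rose in both mutants, 1 fell in both and 3 passed in neither. The class median was 1.22 in SM and 1.31 in DM on the log2 scale. The chains of types I and III are the major ones of interstitial fibres. Col3a1, the sole chain of type III collagen, was estimated at 303 CPM in WT, 1255 in SM and 1136 in DM. In the authors' deposited tables its log2 fold change was 2.05 (SE 0.34, adjusted p = 9.89e-08) in SM and 1.91 (SE 0.34, adjusted p = 1.04e-06) in DM. Both mutant groups lay above WT for this gene. Type I collagen is built of a pair of Col1a1 chains and a single Col1a2 chain. Col1a1 was at 113 CPM in WT, 585 in SM and 456 in DM, and its deposited log2 fold changes in the authors' deposited tables were 2.37 (SE 0.33, adjusted p = 7.26e-11) and 2.01 (SE 0.32, adjusted p = 6.04e-08). Col1a2 was at 259.8, 757 and 711 CPM, with 1.54 (SE 0.28, adjusted p = 1.15e-06) and 1.45 (SE 0.28, adjusted p = 6.56e-06) in the authors' deposited tables. Per kilobase the level of Col1a1 was 0.393 times that of Col1a2 in WT, 0.697 times in SM and 0.578 times in DM, a change of ratio for which no test was available.

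The minor fibrillar chains, which are built into type I fibres and limit their width, did not move by one common amount. In the authors' deposited tables Col5a2 rose by 1.62 (SE 0.26, adjusted p = 5.74e-08) in SM and 1.31 (SE 0.26, adjusted p = 2.12e-05) in DM. Its partner in type V collagen, Col5a1, rose by 0.93 (SE 0.21, adjusted p = 2.5e-04) and 0.64 (SE 0.21, adjusted p = 0.0208) there. Per kilobase, Col5a1 was at 1.06 times the level of Col5a2 in WT and at 0.655 and 0.664 times in SM and DM. Col5a3, the third type V chain, was at 3.30 CPM in WT and rose by 1.22 (SE 0.34, adjusted p = 0.00444) and 1.05 (SE 0.34, adjusted p = 0.0179) in the authors' deposited tables. Col11a1, a chain best known from cartilage, was at 2.26 CPM in WT, 21.2 in SM and 15.8 in DM. It rose 9.37-fold in SM (log2 3.23, SE 0.39, adjusted p = 1.53e-14) and 6.96-fold in DM (log2 2.80, SE 0.38, adjusted p = 3.58e-11) in the authors' deposited tables. The other cartilage chains did not pass. Col11a2 was at 1.46 CPM in WT and its deposited log2 fold changes in the authors' deposited tables, -0.56 and 0.46, were not called (adjusted p = 0.474 and 0.567). Col2a1, the main cartilage collagen, averaged about 3.39 reads per library and was not called either. All 7 cartilage and bone markers, Acan and Comp among them, were under 1 CPM, with a summed level of 0.735 CPM in WT, 0.827 in SM and 0.379 in DM. Per the authors' deposited table, Comp was called lower in DM (-1.52, adjusted p = 0.0361). The part of such cells in the Col11a1 result was not tested.

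The exception among fibrillar genes was Col27a1, which encodes a chain of thin fibrils and was the third most abundant fibrillar transcript per kilobase in WT, at 21.6 CPM per kilobase. It was estimated at 165 CPM in WT, 61.7 in SM and 94.3 in DM. Per the authors' deposited table it fell 2.67-fold in SM (log2 -1.42, SE 0.27, adjusted p = 7.19e-06). The fall in DM was 0.81 on the log2 scale in the authors' deposited table (-0.81, SE 0.26, adjusted p = 0.0221). DM lay 0.61 above SM (95% interval 0.06 to 1.16, unadjusted p = 0.0285 in the authors' deposited table), so the difference between the mutants was not called. Col24a1, a related minor chain at 2.27 CPM in WT, had fold changes near 0 in SM (-0.04, SE 0.38, adjusted p = 1, the authors' deposited table).

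Markers of fibroblasts and vessel-wall mural cells moved with the fibrillar genes. In SM 9 of the 13 rose and none fell, with a median of 0.99, and in DM 8 of 13 rose with a median of 1.13. Their summed level was 998 CPM in WT, 2947 in SM and 2178 in DM, none of the 13 was under 1 CPM, and their part in the collagen results was not tested. Acta2, the smooth muscle actin of contractile fibroblasts, rose by 2.44 and 1.84 in the authors' deposited tables, and Postn, a matrix protein of activated fibroblasts, by 2.13 and 2.28. Pdgfra and Pdgfrb, the growth factor receptors by which interstitial cells are usually recognised, had log2 fold changes of 0.21 and 0.25 in SM and -0.22 and -0.22 in DM in the authors' deposited tables, and none was called. Macrophage markers also moved: all 5 rose in SM and 4 in DM, with sums of 96.3, 277 and 280 CPM in WT, SM and DM. In whole tissue, a change in the number of cells of a type and a change in RNA per cell cannot be told apart.

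The promoters of Col3a1 and Col1a2 are shown because these genes rose together in both mutants. Each window runs from 250 bases before to 50 after the RefSeq start on GRCm38.p6, 5′ to 3′ on the gene's strand, and capitals mark the motifs CCAAT and TATAAA on either strand. Col3a1 lies on chromosome 1 (chr1:45311538-45349706, plus strand) and its window at chr1:45311288-45311587. Col1a2 lies on chromosome 6 (chr6:4504814-4541544, plus strand) and its window at chr6:4505368-4505667.
Col3a1: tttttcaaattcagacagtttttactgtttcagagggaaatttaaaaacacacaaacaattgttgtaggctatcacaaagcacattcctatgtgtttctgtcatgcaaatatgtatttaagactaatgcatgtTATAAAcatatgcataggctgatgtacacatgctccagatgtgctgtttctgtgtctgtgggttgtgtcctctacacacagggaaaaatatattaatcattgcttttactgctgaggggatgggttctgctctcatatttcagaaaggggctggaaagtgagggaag
Col1a2: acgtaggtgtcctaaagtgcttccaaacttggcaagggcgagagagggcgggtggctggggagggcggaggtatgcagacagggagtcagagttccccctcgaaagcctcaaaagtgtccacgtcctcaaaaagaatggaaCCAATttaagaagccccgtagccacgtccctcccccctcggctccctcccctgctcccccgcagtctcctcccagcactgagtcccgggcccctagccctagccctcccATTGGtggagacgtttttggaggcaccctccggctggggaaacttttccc
The Col3a1 window holds 1 TATAAA and no CCAAT, and the Col1a2 window holds 2 CCAAT and no TATAAA. Over the 38 windows of 35 members, 34.2% held CCAAT, 13.2% held TATAAA and 60.5% held the GC box letters GGGCGG, counted on both strands. Over all 32851 windows of the table the shares were 37.4%, 13.6% and 35.7%. A match describes letters and not a bound site. The 9 members without a window in the table were Col1a1, Col2a1, Col4a3, Col5a2, Col9a3, Col12a1, Col14a1, Col22a1 and Col26a1.

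Type IV collagen was the most abundant class, and its 6 genes split into those of the general network and those of the specialised networks. Col4a1 and Col4a2, whose chains form the network found in nearly all basement membranes, rose in SM and were not called in DM. Col4a1 was estimated at 1040.3 CPM in WT, 2014 in SM and 1721 in DM, and per kilobase it was the highest of the 44 genes in each group. In the authors' deposited tables its log2 fold change was 0.95 (SE 0.29, adjusted p = 0.0124) in SM and 0.73 (SE 0.29, adjusted p = 0.0839) in DM. Col4a2 was at 701, 1303 and 1116 CPM, with 0.89 (SE 0.28, adjusted p = 0.0126) and 0.67 (SE 0.28, adjusted p = 0.0918) in the authors' deposited tables. That a gene passes in one mutant and misses in the other does not show a difference between them. The direct difference, DM minus SM, was -0.23 for Col4a1 (95% interval -0.85 to 0.39) and -0.22 for Col4a2 (-0.81 to 0.36) in the authors' deposited table, and both intervals include 0. Endothelial markers, from cells that also make basement membrane, were not called in SM (median -0.17), and 4 of 8 fell in DM (median -0.56). All 8 were above 1 CPM, their summed level was 978 CPM in WT, 934 in SM and 699 in DM, and their part in the type IV values was not tested.

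These genes sit head to head on chromosome 8. Col4a1 runs on the minus strand (chr8:11198423-11312826) and Col4a2 on the plus strand (chr8:11312805-11449287), and their starts overlap by 21 bases. Their windows, chr8:11312777-11313076 on the minus strand for Col4a1 and chr8:11312555-11312854 on the plus strand for Col4a2, share 78 bases and are shown for this overlap.
Col4a1: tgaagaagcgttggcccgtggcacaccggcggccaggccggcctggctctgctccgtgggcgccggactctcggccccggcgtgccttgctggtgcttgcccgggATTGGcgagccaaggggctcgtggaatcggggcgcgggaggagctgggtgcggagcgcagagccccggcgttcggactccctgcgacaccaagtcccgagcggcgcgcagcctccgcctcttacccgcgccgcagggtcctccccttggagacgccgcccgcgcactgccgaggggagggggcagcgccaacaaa
Col4a2: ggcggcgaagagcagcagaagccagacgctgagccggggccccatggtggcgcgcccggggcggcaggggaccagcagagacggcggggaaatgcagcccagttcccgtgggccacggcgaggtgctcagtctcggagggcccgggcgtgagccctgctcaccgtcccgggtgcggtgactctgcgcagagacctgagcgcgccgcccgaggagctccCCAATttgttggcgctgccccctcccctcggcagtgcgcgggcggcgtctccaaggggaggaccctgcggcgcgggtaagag
Capitals mark a CCAAT box read on either strand, 1 in each window. Per kilobase Col4a1 was at 1.45, 1.51 and 1.50 times the level of Col4a2 in WT, SM and DM, so the ratio within the pair varied little between groups.

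The specialised chains did not pass. Col4a3, Col4a4 and Col4a5 form the network of the mature glomerular basement membrane, made by podocytes, and mutations in them cause Alport syndrome. Col4a3 was at 546 CPM in WT, 443 in SM and 431 in DM, with log2 fold changes of -0.30 (SE 0.27, adjusted p = 0.604) and -0.34 (SE 0.27, adjusted p = 0.534) in the authors' deposited tables. Col4a4 was at 439, 410.5 and 435 CPM and had -0.10 (95% interval -0.56 to 0.37) and -0.02 (-0.48 to 0.45) there. Col4a5 was at 185, 177 and 194 CPM, with -0.07 (-0.44 to 0.31) and 0.07 (-0.30 to 0.45) in the authors' deposited tables. For Col4a4 and Col4a5 the intervals leave room for changes of less than 1 log2 unit in either direction. Col4a6, a chain of Bowman's capsule and some tubules, was at 17.0, 23.3 and 25.3 CPM, and its fold changes of 0.45 and 0.57 in the authors' deposited tables were not called (adjusted p = 0.261 and 0.109).

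The balance between networks differed by group in these estimates. Per kilobase, Col4a1 was at 2.46 times the level of Col4a3 in WT, 5.88 times in SM and 5.16 times in DM, a ratio of estimates that carries no test. Col4a3 and Col4a4 also start head to head, 72 bases apart on chromosome 1, at 1.47, 1.28 and 1.17 to 1 in WT, SM and DM. Col4a5 and Col4a6 start 1309 bases apart on chromosome X, and Col4a5 exceeded Col4a6 11.1 times in WT and 7.73 and 7.81 times in SM and DM. Podocyte markers moved alongside: 3 of 7, Nphs1 among them, fell in SM and 3 in DM, with sums of 661, 460.2 and 436 CPM in WT, SM and DM. None of the 7 podocyte markers was under 1 CPM, and their part in the values of Col4a3 to Col4a5 was not tested.

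**Figure D3:**
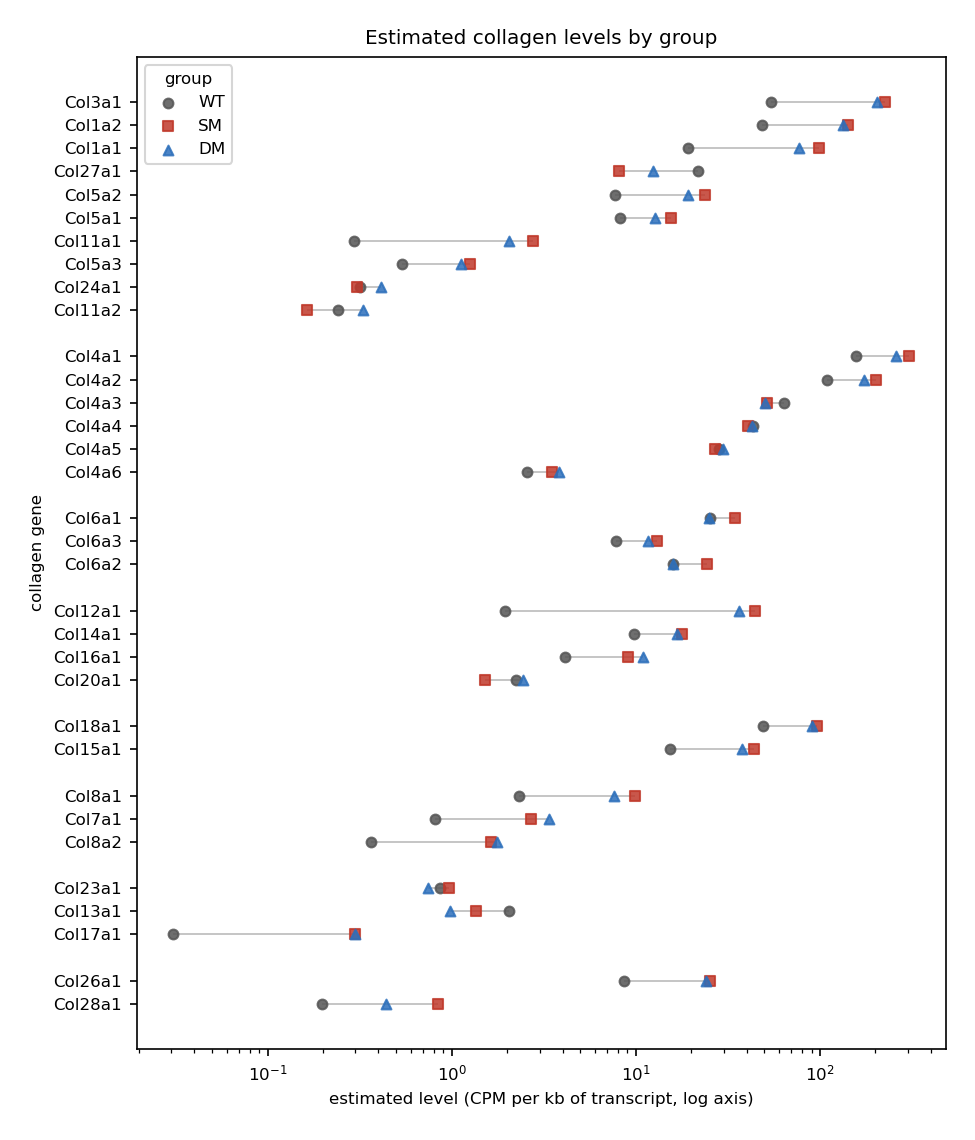
Estimated level of the 33 collagen genes with at least 1 CPM in WT, SM and DM, per kilobase of the longest protein-coding transcript, on a log axis. Col4a1 is highest in every group at 157, 304 and 260 CPM per kilobase, and Col12a1 goes from 1.95 to 44.5 and 36.5.

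The multiplexins, basement membrane zone proteins whose ends release fragments such as endostatin, both rose. Col18a1, source of endostatin, was at 276 CPM in WT, 539.7 in SM and 508 in DM, and rose by 0.97 (SE 0.23, adjusted p = 5.68e-04) and 0.88 (SE 0.23, adjusted p = 0.00224) in the authors' deposited tables. Liver also expresses Col18a1, and the part of the liver transcripts in its WT level was not tested. Col15a1, which links basement membrane to the fibres beneath, was at 79.3, 227 and 196 CPM. It rose by 1.51 (SE 0.30, adjusted p = 1.89e-05) and 1.31 (SE 0.30, adjusted p = 3.59e-04) in the authors' deposited tables.

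FACIT collagens decorate fibre surfaces, and 4 of 9 rose in each mutant while none fell, with class medians of 1.02 and 0.77. Col12a1 had the smallest adjusted p of the 44 members in both comparisons. It encodes a large protein found along type I fibres in tissue under tension, and lies at chr9:79598991-79718831 on the minus strand. It was at 22.4 CPM in WT, 512 in SM and 420 in DM. In the authors' deposited tables it rose 22.8-fold in SM (log2 4.51, SE 0.29, adjusted p = 8.55e-49) and 18.7-fold in DM (log2 4.23, SE 0.29, adjusted p = 9.52e-44). Per kilobase it was at 0.102 times the level of Col1a1 in WT and 0.451 and 0.474 times in SM and DM. Col16a1, a minor partner of fibres and microfibrils, was at 21.6, 47.4 and 57.0 CPM and rose by 1.14 (SE 0.25, adjusted p = 1.24e-04) and 1.40 (SE 0.25, adjusted p = 1.03e-06) in the authors' deposited tables. Col14a1, the near relative of Col12a1, was at 63.4, 116 and 108 CPM. Per kilobase it stood above Col12a1 in WT, at 9.82 against 1.95 CPM, and below it in SM, at 17.9 against 44.5. It rose by 0.87 (SE 0.26, adjusted p = 0.0102) and 0.77 (SE 0.26, adjusted p = 0.0294) in the authors' deposited tables. Col9a2 rose from a level of 0.206 CPM, by 1.41 (adjusted p = 0.0354) and 1.38 (adjusted p = 0.0342) in the authors' deposited tables. Col20a1, at 11.2 CPM in WT, 7.64 in SM and 12.2 in DM, was not called. The remaining FACIT genes, Col9a1, Col9a3, Col19a1 and Col22a1, averaged 1.10 to 19.8 reads per library and were not called.

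The short chain and anchoring collagens all rose in both mutants, 4 of 4, with medians of 2.13 and 2.16. Col8a1 and Col8a2 form the hexagonal lattice of type VIII collagen, made by vessel walls and mesangial cells. Col8a1 was at 11.8 CPM in WT, 50.8 in SM and 38.9 in DM and rose by 2.11 (SE 0.21, adjusted p = 5.46e-20) and 1.72 (SE 0.21, adjusted p = 1.52e-13) in the authors' deposited tables. Col8a2 was at 1.58, 7.06 and 7.61 CPM and rose by 2.16 (SE 0.35, adjusted p = 4.76e-08) and 2.27 (SE 0.35, adjusted p = 8.4e-09) there. Both chains of the lattice were thus called in each mutant. Col7a1, the anchoring fibril collagen that ties epithelium to the tissue below, was at 7.52, 24.8 and 31.1 CPM and rose by 1.72 (SE 0.29, adjusted p = 1.68e-07) and 2.05 (SE 0.29, adjusted p = 2.82e-10) in the authors' deposited tables. Its exons overlap the microRNA gene Mir711 on the same strand, which was at the lowest level in every group.

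Col10a1, the type X collagen of cartilage that is turning to bone, had the largest log2 fold change of the 44 members against WT in each mutant. It was at 0.0379 CPM in WT, about 5.91 reads over the WT group, against 178 reads over the SM group and 103 over the DM group. In the authors' deposited tables its log2 fold change was 5.33 (SE 0.86, adjusted p = 3.73e-08) in SM and 4.54 (SE 0.85, adjusted p = 4.14e-06) in DM. With so few WT reads the size of the change is poorly set, from 3.65 to 7.01 in SM. Exons of Col10a1 (chr10:34389981-34397085, plus strand) overlap those of Nt5dc1 on the other strand, and the strand setting of the counting was not given in the sources used here. Nt5dc1 itself was at 25.6 CPM in WT, 22.1 in SM and 19.7 in DM and was not called, with a log2 fold change of -0.21 in SM per the authors' deposited table (adjusted p = 0.676).

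Of the 4 transmembrane collagens 1 rose, in both mutants. Col17a1, the hemidesmosome collagen of stratified epithelia, was at 0.172 CPM in WT and 1.66 in both mutants, with 3.27 (SE 0.54, adjusted p = 1.27e-07) in SM and 3.27 (SE 0.54, adjusted p = 1.01e-07) in DM in the authors' deposited tables. The other 3 were not called. Col13a1 was at 6.44, 4.27 and 3.08 CPM (log2 -0.59 and -1.07, adjusted p = 0.45 and 0.0763 in the authors' deposited tables). Col23a1 was at 4.92, 5.45 and 4.19 CPM and Col25a1 under 1 CPM. Col17a1 and Col7a1, the hemidesmosome and anchoring fibril collagens of epithelial attachment, rose in both mutants. Of the collecting duct principal cell markers, 5 of 7 rose in SM and 3 in DM, with sums of 858, 1302 and 1166 CPM in WT, SM and DM. Their part in these 2 results was not tested.

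A further pair falls outside these classes. Col26a1 was at 23.9 CPM in WT, 70.6 in SM and 66.8 in DM and rose by 1.56 (SE 0.23, adjusted p = 1.95e-09) and 1.48 (SE 0.23, adjusted p = 1.78e-08) in the authors' deposited tables. Col28a1, related in its domains to type VI collagen, was at 0.840, 3.55 and 1.87 CPM. It rose by 2.08 (SE 0.52, adjusted p = 0.00101) in SM, and its 1.15 (adjusted p = 0.128) in DM did not pass in the authors' deposited tables. Its direct difference between the mutants, -0.93 (95% interval -1.99 to 0.13) in the authors' deposited table, includes 0.

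Type VI collagen forms beaded filaments around cells, and of its 6 genes none rose and 1 fell in SM, while 1 rose and 1 fell in DM. Col6a1, Col6a2 and Col6a3 together make the common heterotrimer. Col6a1 was at 103 CPM in WT, 142 in SM and 103 in DM, Col6a2 at 73.6, 114 and 74.5, and Col6a3 at 79.0, 132 and 118. In SM their log2 fold changes in the authors' deposited table were 0.46, 0.63 and 0.74, with adjusted p = 0.133, 0.051 and 0.0574, just above the threshold for the last pair. In DM they were -0.00, 0.02 and 0.57 in the authors' deposited table, none called. Col6a1 and Col6a2 lie near each other on chromosome 10, and per kilobase their ratio was 1.59, 1.41 and 1.57 in WT, SM and DM. Col6a5, a chain expressed at about 28.2 reads per library, fell 3.67-fold in SM (log2 -1.88, SE 0.67, adjusted p = 0.0411) and 4.15-fold in DM (log2 -2.05, SE 0.67, adjusted p = 0.0201) in the authors' deposited tables. Col6a4, its neighbour on chromosome 9, was at 0.538 CPM in WT. Per the authors' deposited tables it rose in DM by 1.27 (SE 0.46, adjusted p = 0.0447), and its 0.59 in SM was not called. Col6a6 was not called in either. Both Col6a4 and Col6a5 averaged under 1 CPM, and their adjusted p-values lie close to the threshold.

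The question of what the miR-21null allele does to collagen transcripts in Pkd2-deleted kidneys is addressed by DM against SM. In edgeR's likelihood ratio test 0 of the 44 members were called at adjusted p below 0.05, beside 0.0789% of all rows, which is 24 rows. At an unadjusted p below 0.05 there were 5 of 44, against 3.75% of all rows, 3 higher and 2 lower. The median of the members was -0.12, and the median of rows with at least 1 CPM was 0.00. Of the members, 15 lay above 0 and 29 below, beside 13368 above and 12873 below over all rows. Of the 19 members that rose in both mutants, 16 had a value below 0, which counts direction only, since members share libraries. These 19 were picked by the SM and DM values that also form the difference. The same share over all rows called higher in both was not counted, so no conclusion is drawn from it.

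The 5 members at unadjusted p below 0.05 came from several classes. The lower ones were Col6a1 at -0.46 (95% interval -0.90 to -0.03, p = 0.0361) and Col6a2 at -0.61 (-1.11 to -0.12, p = 0.0152) in the authors' deposited table, the 2 neighbours of type VI collagen. The higher ones were Col27a1, given above, Col20a1 at 0.67 (0.13 to 1.21, p = 0.015) and Col11a2 at 1.02 (0.19 to 1.85, p = 0.0166) in the authors' deposited table. Each had an adjusted p of 1 there. The mural cell marker Rgs5 was at -0.74 (unadjusted p = 0.0023) and Pdgfrb at -0.48 (unadjusted p = 0.0395) in the authors' deposited table, and all 8 endothelial markers lay below 0. Their part in the type VI values was not tested.

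The intervals of DM minus SM are given for genes that rose in both mutants. The difference was -0.14 for Col3a1 (95% interval -0.85 to 0.56), -0.36 for Col1a1 (-1.04 to 0.32) and -0.09 for Col1a2 (-0.67 to 0.49) in the authors' deposited table. It was -0.29 for Col12a1 (-0.85 to 0.28) and -0.38 for Col8a1 (-0.82 to 0.06) there. It was -0.43 for Col11a1 (-1.19 to 0.34), an interval little wider than that of Col3a1. For Col17a1 and Col10a1, at lower counts, the intervals were wider, with -0.00 (-1.03 to 1.03) and -0.79 (-2.21 to 0.63) in the authors' deposited table. Width did not follow counts throughout. Col8a1, at 1232 reads per library, had a narrower interval than Col3a1 at 32653. Of the 33 members with at least 1 CPM, 22 had an interval inside 1 log2 unit on both sides of 0. A p that misses the threshold does not show that the groups are alike.

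MicroRNAs repress transcripts whose 3′ untranslated regions match bases 2 to 8 of the microRNA, the seed. The microRNA whose gene is labelled null in DM is shown here with the miR-29 family, the one best known for targeting collagen transcripts, from RefSeq on GRCm38.p6, with seeds in capitals.
mmu-miR-21a-5p: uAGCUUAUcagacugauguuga
mmu-miR-29a-3p: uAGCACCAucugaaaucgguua
mmu-miR-29b-3p: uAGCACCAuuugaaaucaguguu
mmu-miR-29c-3p: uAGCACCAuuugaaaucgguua
The 3 miR-29 sequences share a seed, and miR-21 has another. The letters ATAAGCT, which pair with the miR-21 seed, occurred in the longest annotated 3′ untranslated region of 1 of the 44 members (2.27%), Col12a1. They occurred in 1042 (8.12%) of the 12825 genes that had such a region and averaged at least 1 CPM. The members were not filtered by level, and 11 of them lay under 1 CPM, so the 2 sets are not alike. The Col12a1 site, chr9:79600864-79600893 on the minus strand, is shown with the match in capitals and lies 291 bases into a region of 2178.
Col12a1 site: tgaaggaggcgcctaATAAGCTactaacca
In DM against SM, Col12a1 lay at -0.29 in the authors' deposited table, and its interval of -0.85 to 0.28 includes 0. The letters TGGTGCT for miR-29 occurred in 25 of the 44 members (56.8%) and in 15.8% of the same 12825 genes. The median region was 1032.5 bases in members and 1195 in those genes. Examples from the type I, III and IV genes lie at chr11:94952523-94952552 (plus), chr1:45348967-45348996 (plus) and chr8:11199754-11199783 (minus).
Col1a1 site: gtgggaaggaatttcTGGTGCTatagaagc
Col3a1 site: ttcaaaatgtctcaaTGGTGCTataataaa
Col4a1 site: gccaccgtcacaacaTGGTGCTactccccc
The median of DM minus SM was -0.16 for the members with miR-29 letters and -0.09 for those without. Over the 12825 genes it was -0.014 with these letters and -0.003 without. The median SE of DM minus SM over the 44 members was 0.33, and this split was not tested. A match of letters is a description and not a measured site.

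Genes that make and bind collagen were read from a list of 45. Of the 21 for folding and modification in the endoplasmic reticulum, 3 rose and 1 fell in SM, and 3 rose and 2 fell in DM, with medians of 0.21 and 0.19. Set against the rows with at least 1 CPM, of which 12.2% rose and 9.47% fell in SM and 11.3% and 8.53% in DM, these counts are near the background. P4ha3, a prolyl hydroxylase subunit that averaged under 1 CPM, rose by 3.14 (SE 0.65, adjusted p = 4.54e-05) and 2.27 (adjusted p = 0.0066), and Fkbp10, a collagen chaperone, by 1.14 (adjusted p = 2.75e-06) and 0.98 (adjusted p = 9.35e-05) in the authors' deposited tables. Glt25d1, which adds galactose to hydroxylysine, rose by 0.63 (adjusted p = 0.00919) in SM and was not called in DM (0.19, adjusted p = 0.653) in the authors' deposited tables. Its relative Glt25d2 fell, by 1.01 (-1.01, adjusted p = 0.0427) and 1.41 (-1.41, adjusted p = 0.00238) there. In DM, Plod3, a lysyl hydroxylase, rose by 0.58 (adjusted p = 0.0114) and Leprel1, a prolyl 3-hydroxylase, fell by 0.71 (adjusted p = 0.0436) in the authors' deposited table. Serpinh1, the chaperone dedicated to collagen, was not called at 0.44 (SE 0.28, adjusted p = 0.377) and 0.50 (adjusted p = 0.279) in the authors' deposited tables. The summed level of these genes was 2356 CPM in WT, 2399 in SM and 2387 in DM, and that of the collagens was 4690, 9359 and 8339 CPM. The first sum holds moves in opposite directions. Serpinh1 was at 390, 529 and 552 CPM in WT, SM and DM, and Leprel1 at 390, 278 and 239. In SM 15 of the 21 log2 fold changes were above 0 and 6 below, so the sum does not describe each gene.

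Collagen is then trimmed and crosslinked outside the cell. Of 8 cleavage genes, 3 rose in each mutant, 1 fell in SM and none fell in DM, with medians of 0.57 and 0.03. Among rows with at least 1 CPM, 12.2% rose and 9.47% fell in SM, and 11.3% rose and 8.53% fell in DM. Adamts2, which removes the amino-terminal propeptide of fibrillar collagens, rose by 2.04 (SE 0.24, adjusted p = 3.45e-15) and 1.73 (adjusted p = 5.19e-11), and its relative Adamts3 by 1.28 (adjusted p = 0.00181) and 1.03 (adjusted p = 0.0177) in the authors' deposited tables. Bmp1, which removes the carboxy-terminal propeptide, rose by 1.01 (adjusted p = 9.3e-05) and 1.02 (adjusted p = 7.92e-05), and Adamts14 fell by 0.85 in SM (adjusted p = 0.0254), in the authors' deposited tables. Of 6 crosslinking genes, 5 rose in SM and 4 in DM, with the same background, and their summed level was 267 CPM in WT, 552 in SM and 437 in DM. Lox, the main lysyl oxidase of fibres, rose by 1.94 (SE 0.30, adjusted p = 5.02e-09) and 1.54 (adjusted p = 7.07e-06) in the authors' deposited tables. Loxl2, which also crosslinks type IV collagen, rose by 0.72 (adjusted p = 0.00258) and 0.53 (adjusted p = 0.0412), and Loxl1 by 1.32 (adjusted p = 7.73e-05) and 0.81 (adjusted p = 0.0327) in the authors' deposited tables. Loxl3 rose by 0.78 (adjusted p = 0.0209) and 0.73 (adjusted p = 0.0333) in the authors' deposited tables. Pxdn, the peroxidase that forms the sulfilimine bonds of type IV collagen, rose by 0.71 in SM (adjusted p = 0.012) in the authors' deposited table. In DM it was not called (0.38, adjusted p = 0.307, the authors' deposited table). Its direct difference, DM minus SM, was -0.33 (95% interval -0.79 to 0.13) in the authors' deposited table, and the interval includes 0.

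Among 10 receptors, 5 rose in SM and 4 in DM, beside the 12.2% and 11.3% of rows with at least 1 CPM that rose. Itga11, the integrin chain of fibroblasts that binds type I collagen, rose by 2.73 (SE 0.40, adjusted p = 5.9e-10) and 2.17 (adjusted p = 1.88e-06) in the authors' deposited tables. Itga2, the chain of an epithelial and platelet receptor, rose by 1.78 (adjusted p = 9.3e-05) and 1.06 (adjusted p = 0.0403), and Lair1, a leukocyte receptor, by 1.99 (adjusted p = 0.00172) and 1.998 (adjusted p = 0.00164) in the authors' deposited tables. The discoidin receptor Ddr2, which reads fibrillar collagen, rose by 0.76 (adjusted p = 0.0129) in SM and was not called in DM (0.42, adjusted p = 0.292), and the epithelial Ddr1 was called in neither (0.36 and 0.46, adjusted p = 0.27 and 0.118), in the authors' deposited tables. In DM against SM 0 of the 45 genes were called by edgeR's likelihood ratio test, and 1, Glt25d1 at -0.44 (p = 0.0304, the authors' deposited table), had an unadjusted p below 0.05.

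**Figure D4:**
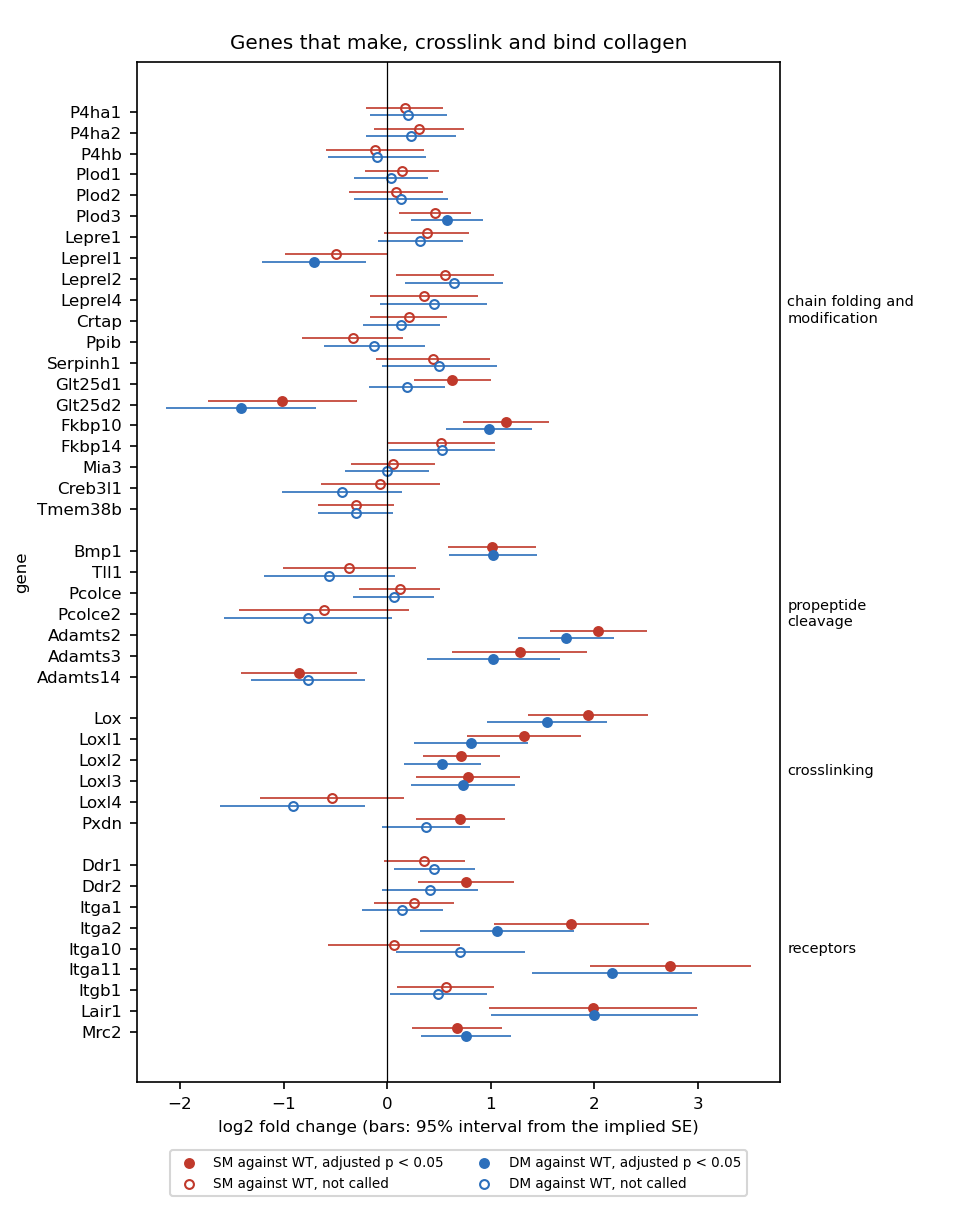
Log2 fold change against WT in SM and DM of genes with at least 1 CPM that fold, cleave, crosslink and bind collagen, with 95% intervals from the implied SE and filled points for called genes. Itga11 at 2.73 and Adamts2 at 2.04 in SM lie farthest above 0, and Serpinh1 at 0.44 and 0.50 was not called.

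Some values carry a limit from the annotation. In GENCODE release 21 on GRCm38, exons of 3 members overlap another gene on the same strand (Col3a1, Col20a1 and Col7a1) and those of 10 members overlap one on the other strand. These include Col4a1 with Col4a2 and Col5a1, Col15a1 and Col10a1 with other genes. Reads from such stretches may have been shared or dropped in counting. The coefficient of variation implied by the SE of SM against WT was 17.5% to 49.4% over the 33 members with at least 1 CPM. Its median was 25.1%. It holds counting noise as well as variation between kidneys of a group.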

How the data were processed

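Libraries of total RNA from 10 kidneys were stranded, per the labels' protocols. Per the submitters' processing notes, the tools included edgeR 3.2.4, Subread 1.4.6 with featureCounts, Cufflinks and TopHat2 2.0.12, and the build was mm10. What each tool did, the annotation and the strand setting of the counting were not given in the sources used here. What the authors deposited are 3 tables of their own comparisons. Per the file headers, a row holds the log2 fold change, the mean level as log2 CPM, the score of the likelihood ratio test, the p-value and the false discovery rate. Tested on the files, the deposited tables are contrasts of a single fit of all groups, and the adjusted p follows Benjamini and Hochberg across the full 30431 rows. Of these, 7155 rows carried no gene name and held 6.74% of summed CPM.

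The SE was taken as the size of the log2 fold change over the root of its score, and 95% intervals as 1.96 SE, with Python 3.11.15, numpy 2.4.6 and pandas 2.3.3. The SE assumes the authors' dispersion. It was tested on simulated counts of 15135 genes with at least 1 CPM and a single known dispersion. There, 95.2% of the 95% intervals held the true change. Members under 1 CPM lay outside that setting, and their SE was not tested. The lowest deposited level and the 10 steps above it, each a single read in 1 library, gave about 2 prior reads per library and 38.9 reads per library at 1 CPM, which is an average and not a depth per sample. Group levels are back-calculated from the average and the fold changes, less the prior, and are approximate. Genes were counted as deposited, with no filter. The planned count test needs values per library, so the planned replacement, the authors' test, was used. Levels per kilobase use the longest protein-coding transcript in GENCODE release 21. Named genes are all members with at least 1 CPM or called, the 3 largest called changes per role of the list of making and binding genes, and Serpinh1, Lox, Loxl2, Pxdn, Ddr1 and Ddr2. The members, classes and lists were chosen with earlier results of these data known.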

Additional observations from a re-analysis of the deposited data

How the results depend on the processing

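The count of collagen genes called in SM against WT was 24, and it was 19 at an adjusted p below 0.01, 23 when adjusted over rows with at least 1 CPM, 25 over named rows, 19 with at least 1 log2 unit of change and 21 for members with at least 1 CPM. In DM against WT the count was 22, and the same settings gave 15 (none of them lower), 18, 22, 18 and 18. DM against SM had 0 called under each of these. Col4a1 and Col4a2 in SM do not pass 0.01. Moving Col7a1, Col15a1 and Col18a1 into the type IV class raised its median from 0.19 to 0.89 in SM and from 0.32 to 0.67 in DM, since those genes rose. The other class medians moved by less than their median SE under each alternative, although the transmembrane median in SM was -0.17 and became 0.15 with members of at least 1 CPM. Single genes were only centred on the median of rows with at least 1 CPM, which moved each of 111 values by less than its SE. No p was recomputed for that. Leaving out single kidneys was not run, because no value per library was used here. No paired analysis was possible because the libraries of different groups share no animal number. Members with under 1 CPM rest on few reads, and their fold changes have the widest intervals.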
